A study of Homo sapiens with 6 samples.

Results

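The genes described here are 41 p53 targets and regulators of apoptosis, followed in HEK293T cells after *USF1* over-expression. They were chosen by name, 22 as p53 targets and 19 as members of the BCL2 family, caspases, caspase inhibitors and adaptors. A probeset was measured for 36 of them, of 9587 named genes in all: 19 p53 targets and 17 apoptosis regulators. *BTG2*, *PLK3*, *FDXR*, *BCL2* and *BAK1* are not analysed here. HEK293T is a line derived from human embryonic kidney that carries the SV40 large T antigen, a viral protein that binds p53, and both groups share this background. The USF1 group received the *USF1* coding region on a plasmid by transient transfection and the control group the Empty vector, and RNA was taken 48 hours later. Each group has 3 arrays. Nothing states whether the replicates came from separate transfections, so the p-values here set differences against a spread that may be only technical. Each array measured the RNA of a whole culture, so fewer cells expressing a gene and less RNA per cell cannot be told apart.

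The transcription factor p53 is stabilized by DNA damage and other stress and then raises genes that halt the cell cycle, repair DNA, adjust metabolism or start apoptosis. It also raises its own antagonist MDM2, which closes a feedback loop. In the mitochondrial route to apoptosis, death members of the BCL2 family such as BAX open the outer mitochondrial membrane, survival members such as MCL1 hold them back, and released cytochrome c joins APAF1 to activate caspase 9. In the receptor route, FADD brings caspase 8 to a death receptor at the cell surface. Large T antigen holds p53 in a complex in which it binds DNA poorly. USF1 binds the E-box CACGTG as a dimer.

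Promoter sequence around the start site was read from RefSeq for 36 of the 41 genes, 31 of them measured, in windows of 250 bases before to 50 bases after the start site (GRCh38.p14). The E-box CACGTG, which reads the same on both strands, lay in a window of 5 of these 31 measured genes (16.1%). The share was 13.4% of 8068 genes measured on the arrays and 8.77% of all 27305 genes with a window. A gene can have several windows, and of 35116 single windows 7.26% held it. The 5 genes were *AEN*, *BAX*, *BBC3*, *BID* and *DIABLO*. *BAX* had 4 copies in its window, beginning at positions -138, -93, -45 and -14 from the start site. The windows of *AEN*, *BAX*, *BBC3* and *BID* are shown because they carry the factor's letters near the start sites of genes of apoptosis, and that of *CDKN1A*, the best known p53 target, because it has none. Capitals mark CACGTG. The coordinates are chr15:88621090-88621369 on the plus strand for *AEN*, which runs to 30 bases past the start site, chr19:48954625-48954874 on the plus strand for *BAX*, chr19:47232668-47232917 on the minus strand for *BBC3*, chr22:17773984-17774233 on the minus strand for *BID* and chr6:36678464-36678713 on the plus strand for *CDKN1A*, each given 5′ to 3′.
AEN: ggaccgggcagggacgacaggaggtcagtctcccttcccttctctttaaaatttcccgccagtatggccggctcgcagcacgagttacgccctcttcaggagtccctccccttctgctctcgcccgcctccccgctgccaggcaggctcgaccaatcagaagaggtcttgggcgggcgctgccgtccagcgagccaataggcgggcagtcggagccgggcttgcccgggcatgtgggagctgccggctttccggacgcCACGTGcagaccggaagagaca
BAX: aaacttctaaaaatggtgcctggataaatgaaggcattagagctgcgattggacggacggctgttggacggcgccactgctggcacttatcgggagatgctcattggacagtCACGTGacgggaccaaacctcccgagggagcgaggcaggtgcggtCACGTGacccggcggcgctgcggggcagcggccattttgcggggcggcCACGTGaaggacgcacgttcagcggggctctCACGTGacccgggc
BBC3: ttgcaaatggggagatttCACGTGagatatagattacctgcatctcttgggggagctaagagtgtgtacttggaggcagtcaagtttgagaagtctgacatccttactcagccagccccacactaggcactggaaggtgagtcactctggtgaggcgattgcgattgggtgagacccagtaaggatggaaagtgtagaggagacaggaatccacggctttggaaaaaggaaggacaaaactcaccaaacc
BID: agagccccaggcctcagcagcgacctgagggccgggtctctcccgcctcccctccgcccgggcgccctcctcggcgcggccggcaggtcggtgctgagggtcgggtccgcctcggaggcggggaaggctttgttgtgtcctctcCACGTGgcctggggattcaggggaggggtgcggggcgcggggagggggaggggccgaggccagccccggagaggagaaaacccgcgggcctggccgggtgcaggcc
CDKN1A: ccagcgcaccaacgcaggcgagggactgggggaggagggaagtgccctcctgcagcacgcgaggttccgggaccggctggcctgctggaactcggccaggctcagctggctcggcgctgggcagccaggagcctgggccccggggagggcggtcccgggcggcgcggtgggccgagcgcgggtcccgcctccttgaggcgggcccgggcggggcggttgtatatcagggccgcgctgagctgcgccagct

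Of the 5 genes with an E-box in the window only *AEN* was among the members called changed below, so 1 of 6 called members with a window (16.7%) and 4 of 25 uncalled ones (16%) had the motif. The decamer of the p53 consensus was searched on both strands. It was found in the windows of *AEN*, *CARD8*, *CASP9*, *CASP8* and *SESN1*, 5 of 31 measured members (16.1%). The share was 7.23% of measured genes, 8.06% of all genes with a window and 6.63% of all single windows. *AEN*, *CARD8* and *CASP9* were called changed, so that 3 of 6 called and 2 of 25 uncalled members held the decamer. In *AEN* it began at position -34 from the start site and the E-box at position 9. A pair of decamers at most 13 bases apart, the full p53 consensus, was in the windows of 0 of the 36 genes. It was in those of 0.0366% of all genes with a window, and in 0.0285% of all single windows. These are letter matches in short windows, and no binding was measured here.

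All values below are the deposited expression values on the log2 scale, and differences are USF1 minus Empty vector,. A gene is represented by its probeset with the highest mean over the 6 arrays. A gene was called changed when limma gave it a p-value below 0.05 after adjustment over all 16569 probesets. The array medians lay between 5.88 and 6.0, and those of USF1 (5.883 to 5.956) were all below those of Empty vector (5.963 to 6.0035). Empty vector replicate 1 differed from its group, with an SD of the difference over all probesets of 0.336 from either of the other arrays, against 0.182 between those and 0.149 to 0.222 within USF1. Its *ACTB* 5′ minus 3′ control signal was -1.34, against -1.04 and -0.52 in the other Empty vector arrays and -0.68 to -0.49 in USF1. The 1 probeset of *USF1* itself read 4.76, 4.94 and 4.68 in USF1 and 4.37, 5.08 and 5.14 in Empty vector, a difference of -0.07 (adjusted p-value = 0.836, limma). The over-expression is thus not visible at this probeset, whose place relative to the cloned coding region was not examined. The authors report over-expression of the protein by western blot. In the array values used here the groups rest on their labels. Of 7 HEK293T markers, *VIM*, *CDH2*, *NEFM* and *NEFL* were measured and none was called changed at its brightest probeset, though the other 2 probesets of *NEFL* were called higher, by 0.41 and 0.38, and none of 8 markers of blood, endothelium, fibroblasts, liver and fat had a probeset.

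Of the 36 measured members 6 were called lower and 0 higher. This holds for the members alone. Further p53 targets, given below, had 1 called higher and 7 lower, and further apoptosis genes 3 higher and 2 lower. *AEN*, *GDF15* and *MDM4* fell among the p53 targets and *CARD8*, *CASP9* and *CASP2* among the apoptosis regulators, by 0.36 to 0.61. The 6 called members are 16.7% of the 36 measured, and all are lower in USF1. Over all genes 14.1% were called, 5.18% higher and 8.89% lower, so the share of members called was near that of all genes. The well known p53 targets *CDKN1A*, *MDM2*, *BAX* and *BBC3* were not called. At an unadjusted p-value under 0.05, 9 of the 36 members were lower and 0 higher, against 34.5% of all genes in either direction.

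By list, 3 of 19 p53 targets (15.8%) and 3 of 17 apoptosis regulators (17.6%) were called. The 3 USF1 arrays lay beyond all Empty vector arrays for 6 genes of each list, 33.3% of members together, against 40.2% of all genes. The median difference was -0.11 over the p53 targets, from -0.61 to 0.29, and -0.08 over all genes. It was -0.04 over the apoptosis regulators, from -0.54 to 0.24, and turned to 0.03 with each array centred on its median and to 0.02 after a further quantile normalization, when the p53 targets stood at -0.05 under both. The number of p53 targets below 0 was 15 of 19 on the deposited values and 11 of 19 (57.9%) under both other scalings, where 63.4% of all genes were below 0 on the deposited values, 51.9% after centring and 54.7% after quantile normalization.

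The number of calls depended on single arrays. Without Empty vector replicate 1, the array that stood apart, 3 p53 targets and 2 apoptosis regulators were called lower. Without USF1 replicate 2, 5 p53 targets and 1 apoptosis regulator were called. Leaving out USF1 replicate 1 gave 0 and 1, USF1 replicate 3 gave 0 and 0, Empty vector replicate 2 gave 0 and 1, and Empty vector replicate 3 gave 1 and 1. Each of these fits has 5 arrays, and calls over all genes ranged from 256 to 1472 among them, against 1349. The methods' t-test, adjusted in the same way, called 0 members with equal or unequal variances, and 107 and 1 of all genes, while at an unadjusted p-value under 0.05 with equal variances it took 5 p53 targets and 4 apoptosis regulators, against 29.5% of all genes.

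**Figure D1:**
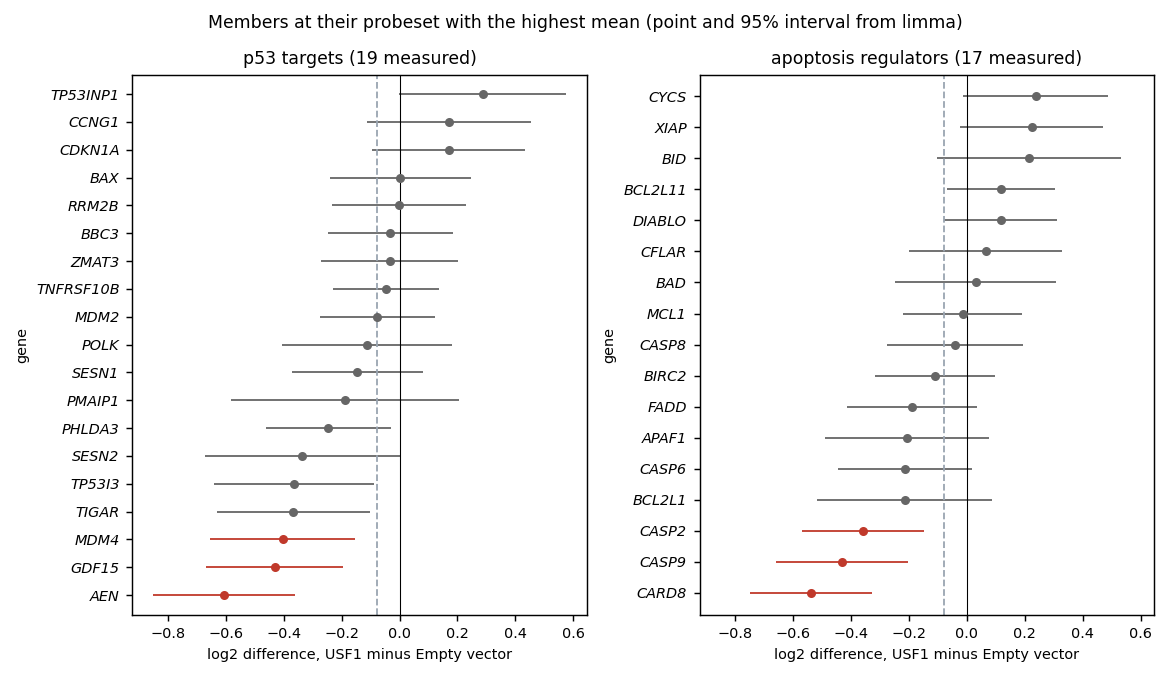
The log2 difference, USF1 minus Empty vector, for the 19 p53 targets (left) and 17 apoptosis regulators (right) measured, as points with 95% intervals from limma. Red marks the 6 called members, all lower in USF1, and the dashed line the median of all genes at -0.08. Most points of both lists lie within 0.3 of 0.

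MDM2 and MDM4 restrain p53, the first as the ubiquitin ligase that marks it for destruction and the second by covering its activation domain, and cyclin G1 recruits a phosphatase that activates MDM2. *MDM4* measured 7.05, 7.33 and 7.02 in USF1 and 7.45, 7.64 and 7.53 in Empty vector. All USF1 arrays lay below all Empty vector arrays, and the difference was -0.40 ± 0.11 (SE, n = 3 per group; adjusted p-value = 0.0483, limma). The call lay next to the threshold and was lost under both other scalings and in 4 of the 6 fits with 1 array left out, those without USF1 replicate 1, USF1 replicate 3, Empty vector replicate 2 or Empty vector replicate 3. It was also lost when the probesets of the gene were averaged, at -0.42 (adjusted p-value = 0.0675, limma). *MDM2* measured 5.98, 6.08 and 6.02 in USF1 and 6.001, 6.16 and 6.14 in Empty vector. Its groups overlapped and differed by -0.08, with a 95% interval from -0.27 to 0.12. *CCNG1*, the cyclin G1 gene, differed by 0.17 (-0.11 to 0.46) and was not called.

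Among genes of growth arrest, *CDKN1A* encodes p21, the inhibitor of cyclin-dependent kinases through which p53 halts the cycle, and *GDF15* a secreted stress cytokine. *CDKN1A* measured 6.96, 7.21 and 6.99 in USF1 and 6.85, 6.73 and 7.07 in Empty vector. One Empty vector array lay above 2 of the USF1 arrays, and the difference was 0.17 with a 95% interval from -0.09 to 0.43 (adjusted p-value = 0.351, limma). *GDF15* measured 4.05, 4.32 and 4.01 in USF1 and 4.53, 4.56 and 4.58 in Empty vector. The Empty vector arrays lay close together and above all of USF1, and *GDF15* fell by 0.43 (SE 0.10; adjusted p-value = 0.0330, limma). This call was lost with each array centred on its median and without USF1 replicate 1, USF1 replicate 3, Empty vector replicate 2 or Empty vector replicate 3. The p53 targets *CDKN1A* and *GDF15* thus had differences of opposite sign, of which that of *GDF15* alone was called.

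Of the 5 measured genes of metabolism and stress protection 0 were called, and 4 had differences below 0, as had 63.4% of all genes. TIGAR lowers glycolytic flux and limits oxidative damage, TP53I3 is an oxidoreductase, and the sestrins restrain the growth kinase mTORC1. *TIGAR* measured 6.63, 6.96 and 6.63 in USF1 and 7.14, 7.21 and 6.99 in Empty vector. The groups stayed apart by a narrow margin, since USF1 replicate 2 lay just under the lowest Empty vector array, and the difference was -0.37 (SE 0.12; adjusted p-value = 0.0727, limma). It was called without USF1 replicate 2, at -0.48 (adjusted p-value = 0.0283). *TP53I3* measured 5.65, 5.51 and 5.59 in USF1 and 6.20, 5.76 and 5.88 in Empty vector. Here too all USF1 arrays were below, at -0.36 (SE 0.12; adjusted p-value = 0.0820, limma), with Empty vector replicate 1 the highest array. *SESN2* differed by -0.34 (adjusted p-value = 0.161), and its USF1 replicate 2, at 7.81, lay among the Empty vector arrays of 7.72 to 7.88. Without that array *SESN2* was called, at -0.51 (adjusted p-value = 0.0208, limma). *SESN1* differed by -0.15, and *TP53INP1*, which acts in autophagy and stress, by 0.29, the highest value of the p53 targets (adjusted p-value = 0.16, limma).

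In DNA synthesis and repair, *RRM2B*, a subunit of ribonucleotide reductase that p53 induces, differed by -0.0016, and *POLK*, a polymerase that copies past lesions, by -0.11. Neither was called.

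Of 7 p53 targets that act in cell death, only *AEN* was called. *AEN*, an apoptosis-enhancing nuclease that digests DNA, measured 6.99, 7.32 and 7.02 in USF1 and 7.66, 7.77 and 7.72 in Empty vector. It was the member with the largest difference, at -0.61 ± 0.11 (SE; 1.52-fold lower in USF1; adjusted p-value = 0.0136, limma), and its highest USF1 array lay 0.34 below its lowest Empty vector array. The call held with each array centred and after quantile normalization and was lost without USF1 replicate 1, USF1 replicate 3 or Empty vector replicate 2. *AEN* also holds the E-box shown above. *BAX*, whose product opens the outer mitochondrial membrane, measured 6.27, 6.10 and 6.01 in USF1 and 6.19, 5.97 and 6.22 in Empty vector. The groups interleaved and differed by 0.0023, with a 95% interval from -0.24 to 0.25. *BBC3*, which encodes the BH3-only protein PUMA, measured 4.92, 4.86 and 4.72 in USF1 and 4.91, 4.77 and 4.92 in Empty vector. Its groups overlapped too, at -0.03 (-0.25 to 0.18), and its only probeset also names 2 microRNA genes, *MIR3190* and *MIR3191*. The 4 E-boxes of the *BAX* window and the 1 of *BBC3* thus stood at genes whose groups overlapped. *PHLDA3*, which blocks the survival kinase AKT, differed by -0.25 (adjusted p-value = 0.12, limma) with the groups apart. *PMAIP1*, encoding the BH3-only protein NOXA, differed by -0.19, *TNFRSF10B*, a death receptor for TRAIL, by -0.05, and *ZMAT3*, an RNA-binding p53 target, by -0.03. The last 2 and *BBC3* turned positive, by at most 0.04, under both other scalings.

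**Figure D2:**
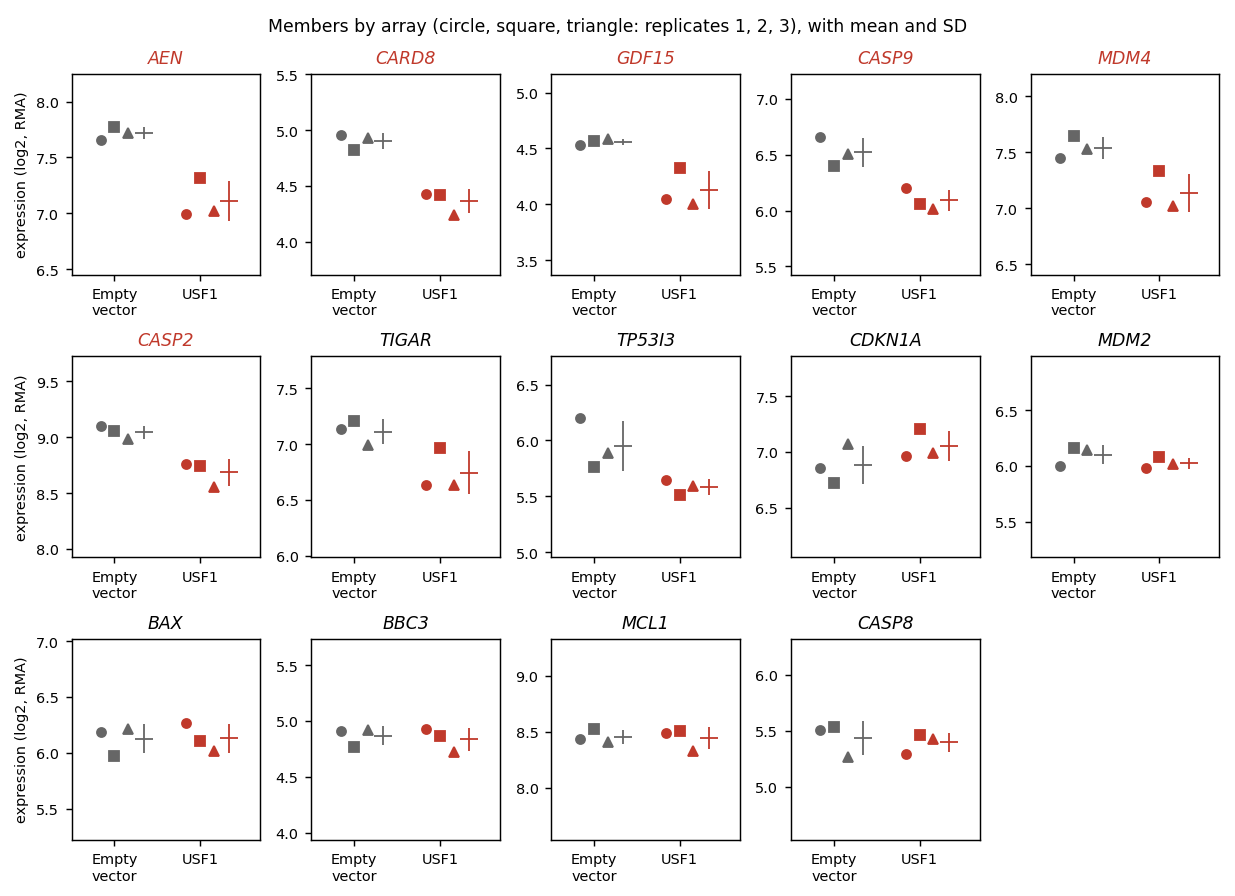
Expression (log2, RMA) in each array for the 6 called members (red titles) and 8 others, with Empty vector in grey and USF1 in red. Circles, squares and triangles are replicates 1, 2 and 3, the cross gives mean and SD, and every panel spans the same number of log2 units. The groups are apart in the called members, in *TIGAR* and in *TP53I3*, and overlap in *CDKN1A*, *MDM2*, *BAX*, *BBC3*, *MCL1* and *CASP8*.

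Among the p53 targets, USF1 replicate 2 read higher than the other USF1 arrays. It was the highest of its group for 14 of the 19 (73.7%), against 39.3% of all genes, and for 8 of the 17 apoptosis regulators (47.1%). The median deviation of the p53 targets from their own means over the 6 arrays was -0.11, 0.01 and -0.12 in the USF1 arrays and 0.06, 0.10 and 0.08 in the Empty vector arrays. All Empty vector arrays lay above all USF1 arrays, but less the median of all genes in each array the values were -0.11, 0.04 and -0.05 in USF1 and -0.04, 0.07 and 0.09 in Empty vector, and the groups overlapped. For the apoptosis regulators it was 0.01, -0.0019 and -0.12 in USF1 and 0.10, 0.07 and 0.0045 in Empty vector, where the groups overlapped. For all genes it ran from -0.07 to -0.0056 in USF1 and from -0.0050 to 0.10 in Empty vector.

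**Figure D3:**
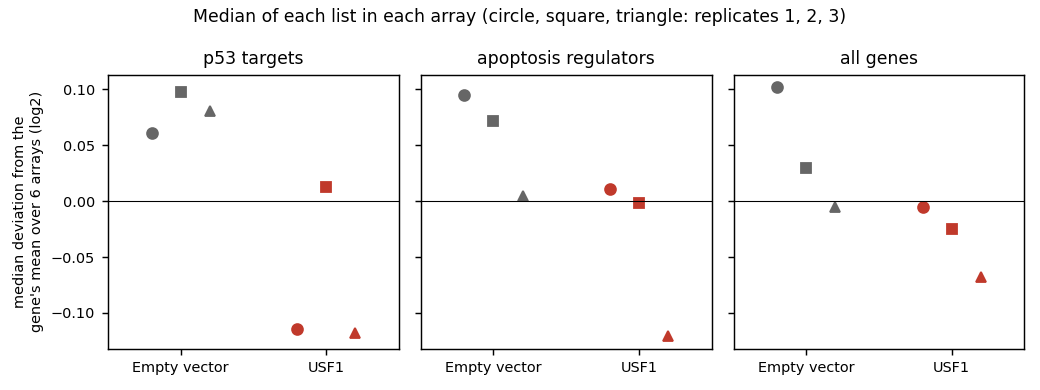
The median deviation from each gene's own mean over the 6 arrays (log2) in each array, for the p53 targets, the apoptosis regulators and all 9587 genes. Empty vector is grey, USF1 is red, and circles, squares and triangles are replicates 1, 2 and 3. USF1 replicate 2 stands above the other USF1 arrays for the p53 targets only, and the groups overlap for the apoptosis regulators.

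The BCL2 family decides whether mitochondria release cytochrome c. Of the 5 measured genes listed under it among the apoptosis regulators, 0 were called. *BAX*, *BBC3* and *PMAIP1* of this family are given with the p53 targets above, and further members, of which *BIK* and *BCL2L2* were called, with the other apoptosis genes below. Of the survival members, *MCL1* measured 8.49, 8.50 and 8.33 in USF1 and 8.43, 8.52 and 8.41 in Empty vector. The arrays interleaved, and the difference was -0.01 with a 95% interval from -0.22 to 0.19. *BCL2L1*, which encodes BCL-XL, differed by -0.21 (-0.52 to 0.09). The 3 measured death members of this list had differences above 0 on the deposited values and under both other scalings. Those listed with the p53 targets differed by 0.0023 (*BAX*), -0.03 (*BBC3*) and -0.19 (*PMAIP1*), so the direction is not one of all death members. *BID*, which links death receptors to mitochondria, differed by 0.21 (-0.10 to 0.53), *BCL2L11*, encoding BIM, by 0.12 (-0.07 to 0.30) and *BAD* by 0.03 (-0.25 to 0.31). For *BCL2L11* all USF1 arrays were above all Empty vector arrays, with an adjusted p-value of 0.357 from limma.

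The caspases, the proteases that carry out apoptosis, included 2 of the called members. *CASP9*, the initiator that APAF1 activates, measured 6.20, 6.06 and 6.01 in USF1 and 6.66, 6.40 and 6.50 in Empty vector. Every USF1 array lay below every Empty vector array, and *CASP9* fell by 0.43 (SE 0.10; 1.35-fold lower; adjusted p-value = 0.0302, limma). With 1 array left out it was called only without Empty vector replicate 1, at -0.36 (adjusted p-value = 0.0449), and in the other 5 fits it stood between -0.49 and -0.39. *CASP2*, an initiator linked to p53 through the PIDD1 platform, measured 8.76, 8.74 and 8.55 in USF1 and 9.10, 9.05 and 8.98 in Empty vector. The groups were apart by 0.22, and *CASP2* fell by 0.36 (SE 0.09; adjusted p-value = 0.0419, limma). This call was lost in each of the 6 fits with 1 array left out, at -0.40 to -0.29, with each array centred, and when all 6 probesets of the gene were averaged, at -0.12 (adjusted p-value = 0.648, limma). *CASP8*, the initiator of the receptor route, measured 5.29, 5.46 and 5.43 in USF1 and 5.51, 5.53 and 5.26 in Empty vector. The arrays interleaved, at -0.04 (-0.28 to 0.20). *CASP6*, an executioner, differed by -0.21 (adjusted p-value = 0.188, limma) with the groups apart.

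Of the caspase inhibitors, *XIAP* differed by 0.22 (-0.02 to 0.47) and *BIRC2* by -0.11, and *DIABLO*, whose product displaces them from caspases, by 0.12. None was called. In the apoptosome, *CYCS*, cytochrome c, differed by 0.24 (-0.01 to 0.49) and *APAF1* by -0.21 (-0.49 to 0.08), and neither was called. In the receptor route, *FADD* differed by -0.19 with the groups apart (adjusted p-value = 0.23, limma) and *CFLAR*, a decoy of caspase 8, by 0.07. *CARD8*, a CARD adaptor that can form an inflammasome and activate caspase 1, measured 4.43, 4.42 and 4.24 in USF1 and 4.95, 4.82 and 4.93 in Empty vector. The gap between the groups was 0.39, and *CARD8* fell by 0.54 (SE 0.09; 1.45-fold lower; adjusted p-value = 0.0121, limma). Its call held under both other scalings and in 5 of the 6 fits with 1 array left out, being lost without USF1 replicate 3.

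Other probesets of the members gave a further reading of the same arrays. The 36 members have 71 probesets, of which 7 were called (11.9% of all probesets were), and 21 members have more than 1. The second probeset of *CARD8* differed by -0.45 (adjusted p-value = 0.0859, limma) beside -0.54 at the first, while that of *CASP9* differed by -0.10 beside -0.43. *MDM4* had 4 probesets between -0.69 and -0.09, of which 2 were called. *CASP2* had 6 between -0.36 and -0.0036, of which only the brightest was called. *AEN* and *GDF15* had 1 probeset each. In 5 members the probesets had both signs, and in *XIAP* all 5 were above 0, between 0.07 and 0.49, with none called.

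**Figure D4:**
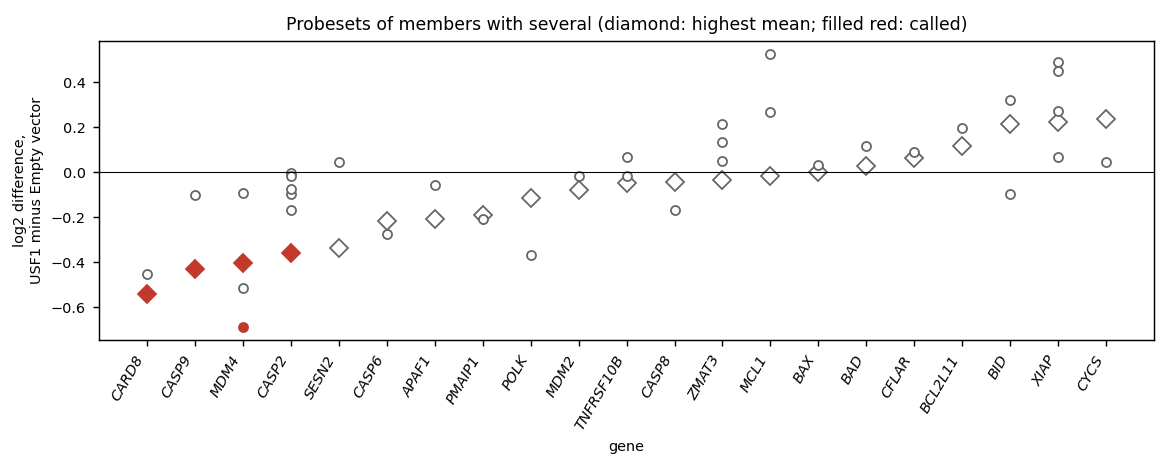
The log2 difference, USF1 minus Empty vector, at every probeset of the 21 members that have several. Diamonds are the probeset with the highest mean, circles the others, and filled red marks a called probeset. The *CASP2* and *MDM4* probesets spread from near 0 down to the called values, and those of *XIAP* lie above 0 with all 6 arrays.

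At some of the disagreeing probesets Empty vector replicate 1 read low. At the dimmest probeset of *BID*, which had the opposite sign, it read higher by 0.36 than the mean of its group's other arrays. At 16 of the 71 probesets this array read more than 0.5 below the mean of the other 2 Empty vector arrays. The 5 other probesets of *CASP2* were among them, with Empty vector replicate 1 lower by 0.73 to 1.06. The share of all probesets with such a reading is not given here, so the count cannot be called particular to the members. At the brightest probesets this array was the lowest of its group for 17.6% of all genes and the highest for 57.9%. It was the lowest for 36.8% of the p53 targets and 11.8% of the apoptosis regulators. A fit without this array, chosen after the data were seen, called 10 probesets, all lower, in 6 members, against 12.2% of all probesets. All 6 probesets of *CASP2* then stood between -0.41 and -0.32, and 2 of them were called, though not the brightest. All 4 probesets of *MDM4* were called, between -0.69 and -0.45. The 5 probesets of *XIAP* moved to between -0.07 and 0.18, and the second probeset of *SESN2* moved from 0.05 to -0.39 (adjusted p-value = 0.0713, limma). *AEN*, *CARD8*, *GDF15* and *CASP9* were called at their first probeset in this fit as well. The probesets of *CASP9* still differed, at -0.36 and -0.16. The 5′ minus 3′ control signals of the array are given above, and their part in these readings was not tested.

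The wider pathway was read from lists of further genes, written with earlier results of these data known, among them the fall of *DDB2*. The shares called in these lists are therefore descriptions and not tests against the share of all genes. Of 32 other p53 targets 23 were measured, with 1 called higher, 7 lower (34.8% in all, against 14.1% of all genes) and a median of -0.16. *DDB2*, which recognizes ultraviolet damage in DNA, measured 5.16, 5.27 and 5.03 in USF1 and 6.67, 6.61 and 6.64 in Empty vector. It fell by 1.49 (SE 0.09; adjusted p-value = 0.000237, limma), where the largest fall among the 19 p53 targets above was 0.61. *FAS*, a death receptor, went the other way, at 5.82, 5.63 and 5.93 in USF1 and 4.63, 4.58 and 4.18 in Empty vector, a rise of 1.33 (SE 0.14). Both were called in all 6 fits with 1 array left out. The other 6 were lower by 0.41 to 0.54, namely *PIDD1*, *FBXO22*, *PRKAB1*, *RPS27L*, *PPM1D* and *ASCC3*. *PIDD1*, the platform for caspase 2, differed by -0.54 and *PPM1D*, a phosphatase that switches p53 signalling off, by -0.42. Calls in this list were 1 higher and 2 lower without USF1 replicate 1 or USF1 replicate 3, 1 and 3 without Empty vector replicate 2, and 1 with 6 or 7 lower without any other array. With each array centred 5 were called lower, without *PPM1D* and *ASCC3*, and after quantile normalization 6, without *ASCC3*, which was called in only 1 of the 6 fits with an array left out.

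Among p53 and its regulators, 13 of 16 were measured and 2 fell. This share of 15.4% was near the 14.1% of all genes called in either direction, with 8.89% of all genes called lower. *ATR*, the kinase that signals stalled replication to p53, fell by 0.69 (SE 0.10; adjusted p-value = 0.00612, limma), and *TP53BP1*, a p53-binding protein of DNA break repair, by 0.55. *ATR* was called without each array in turn and *TP53BP1* in all such fits but that without USF1 replicate 3. *ATM*, *CHEK1*, *USP7* and *EP300*, with differences of -0.08, 0.08, 0.05 and -0.14, were among the 11 not called. The dimmest of the 4 probesets of *CHEK1* was called, at -0.96 (adjusted p-value = 0.00825, limma), where the others differed by 0.08, -0.02 and 0.06.

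Of 26 other apoptosis genes 17 were measured, and both directions occurred. Calls were 3 higher and 2 lower (29.4% in all), against 5.18% of all genes higher and 8.89% lower (14.1% in all). *BIK*, a BH3-only death member of the BCL2 family, measured 5.10, 4.99 and 4.95 in USF1 and 3.98, 3.70 and 4.34 in Empty vector. It rose by 1.01 (SE 0.15; adjusted p-value = 0.00779, limma) and was called without each array in turn. *HTRA2*, a mitochondrial protease that relieves caspase inhibition, rose by 0.56 (adjusted p-value = 0.00898, limma). Its second probeset differed by 0.37 and was not called (adjusted p-value = 0.0535, limma). *ENDOG*, a mitochondrial nuclease, rose by 0.44 (adjusted p-value = 0.0354, limma). With 1 array left out, *HTRA2* was called in 5 of the 6 fits and *ENDOG* in 1. *BCL2L2*, which encodes the survival member BCL-W, fell by 0.60 (SE 0.14) and *DFFA*, the inhibitor of the apoptotic DNase, by 0.38, where its other 2 probesets differed by 0.05 each. Counts of calls in this list were 5 higher and 2 lower under both other scalings and without Empty vector replicate 1, 2 and 2 without USF1 replicate 2, 1 and 0 without USF1 replicate 3, and 2 and 0 without USF1 replicate 1, Empty vector replicate 2 or Empty vector replicate 3. Over all genes they were 704 and 565 with each array centred and 653 and 657 after quantile normalization. With an array left out, the all-gene total was smallest without USF1 replicate 3, at 160 and 96. It was largest without USF1 replicate 2, at 451 and 1021.

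**Figure D5:**
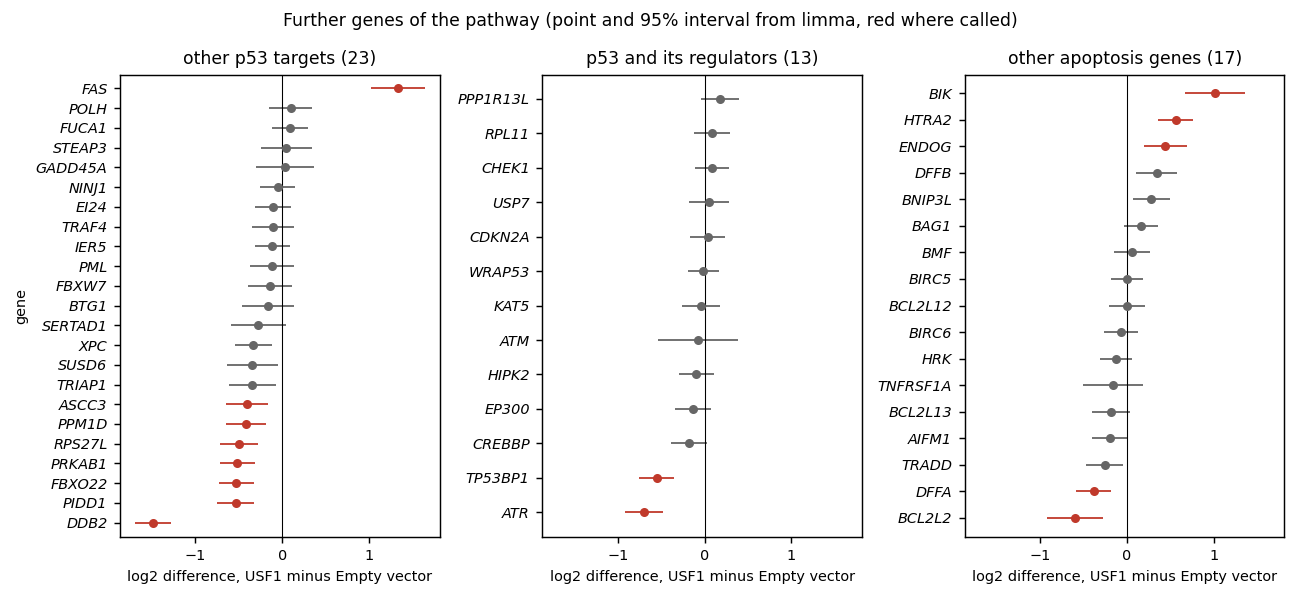
The log2 difference, USF1 minus Empty vector, with 95% intervals from limma for 23 other p53 targets, 13 regulators of p53 and 17 other apoptosis genes, red where called. *DDB2* at -1.49 and *FAS* at 1.33 lie at the ends of the first panel, *ATR* at -0.69 at the low end of the second, and *BIK* at 1.01 at the high end of the third.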

How the data were processed

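The 6 arrays were assigned to USF1 or Empty vector, with their replicate numbers, from their titles. The deposited values are log2 expression values: the authors imported the arrays with justRMA (R 2.8.0), which subtracts background and quantile normalizes, masked mis-targeted probes, removed probesets short of probes or called absent on most arrays, and applied ComBat for batches that the sources used here do not name. These steps can move small differences and were not repeated. The values run from 1.89 to 12.94, and with 3 arrays per group their number limits the precision.

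From these values each probeset was fitted with lmFit and eBayes of limma 3.58.1 in R 4.3.3 without covariates (prior degrees of freedom 4.53), over all 16569 probesets, 33 control probesets included, with Benjamini-Hochberg adjustment and a threshold of 0.05. The platform annotation names 1 gene for 15099 probesets, several for 570 and none for 900. Shared probesets were kept for the described genes alone. Counting per gene took the probeset with the highest mean. The fit was tested on simulated data.

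The genes, the further lists and the tests were chosen with earlier results of these data known. Named are all members, with array values for those called, those apart by at least 0.3 and a set of well known genes, and the called genes of the further lists. The alternatives were other scalings, the methods' t-test, a trend or array weights in limma, a replicate block, a filter on the dimmest 25% of probesets, averaging all probesets of a gene, counting *BBC3*, *BAX* and *PMAIP1* as apoptosis regulators, and leaving out each array.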

Additional observations from a re-analysis of the deposited data

How the results depend on the processing

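The 6 called members kept their direction under the alternatives that gave them a value, but their calls rest on 3 arrays per group. The filter on the dimmest 25% of probesets removed *GDF15* and *CARD8*, so that 2 p53 targets and 2 apoptosis regulators were called under it. Over all genes, 497 were called higher and 852 lower on the deposited values, 704 and 565 with each array centred on its median, and 653 and 657 after a further quantile normalization. Centring left 1 p53 target called and moved the medians to -0.045 for p53 targets and 0.028 for apoptosis regulators, and quantile normalization moved them to -0.047 and 0.021. Averaging all probesets of a gene moved the apoptosis median to -0.10. The methods' t-test called 1 gene with unequal and 107 with equal variances, and 0 in each list under both, while unadjusted with equal variances it took 2830 genes and 5 p53 targets. Array weights called 2366 genes and 5 p53 targets.

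The replicate block called 1906 genes, against 1349, and 5 p53 targets, with *TIGAR* and *TP53I3* added, and changed no other member's call. Deviations of arrays with the same number correlated at 0.10, 0.25 and 0.13, and every array correlated best with its own number, but nothing in the labels says that a number marks a shared transfection.

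With 1 array left out, 256 to 1472 genes, 0 to 5 p53 targets and 0 to 2 apoptosis regulators were called, and the medians ran from -0.15 to -0.074 and from -0.12 to -0.027. The fits have fewer arrays.

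Members near 0 changed sign. With each array centred, *RRM2B* stood at 0.067, *TNFRSF10B* at 0.022, *BBC3* at 0.037, *ZMAT3* at 0.034, *MCL1* at 0.054 and *CASP8* at 0.028. After quantile normalization the same genes stood at 0.061, 0.024, 0.015, 0.031, 0.037 and 0.021. Averaged over their probesets, *TNFRSF10B* stood at 0.0015, *ZMAT3* at 0.093 and *MCL1* at 0.26. With 1 array left out, the ranges were -0.082 to 0.13 for *BAD*, -0.074 to 0.060 for *BAX*, -0.082 to 0.026 for *BBC3*, -0.13 to 0.0095 for *CASP8*, -0.030 to 0.17 for *CFLAR*, -0.046 to 0.043 for *MCL1*, -0.20 to 0.0044 for *POLK*, -0.050 to 0.068 for *RRM2B* and -0.12 to 0.042 for *ZMAT3*. The causes of these changes were not tested.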
